A study of Arabidopsis thaliana with 9 samples.

Results

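The genes described here are 10 components of the Arabidopsis thaliana circadian clock that are expressed from the day into the evening. They are the pseudo-response regulator genes PRR9, PRR7, PRR5, PRR3 and TOC1, the gene GIGANTEA (GI), and the evening genes ELF3, ELF4, LUX and BOA. They were taken by locus identifier from 37869 loci with an exon count and an intron count in each of 9 libraries, and all 10 were present. All 10 also passed the filter on low counts, which left 22631 genes for testing. The loci are listed by name, and they were chosen by their exon and intron counts across these same libraries. Differences of the 10 genes between genotypes are therefore given with their errors, as a description. Where the number of them called by edgeR is given, it is a description too, and no p-value is given for them.

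The clock is a loop of transcription factors that repress each other in turn through the day. The MYB factors CCA1 and LHY act at dawn and bind a promoter sequence called the evening element. PRR9, PRR7 and PRR5 follow through the day, TOC1 follows in the evening, and all 4 repress CCA1 and LHY. ELF3, ELF4 and LUX then form the evening complex, which represses PRR9, PRR7, GI and growth genes at night. GI is a large protein that stabilises the F-box protein ZTL and, with FKF1, promotes CO expression in long days. PRR3 stabilises TOC1, and BOA is a close relative of LUX in the GARP family of DNA-binding proteins.

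Polyadenylated RNA came from seedlings 12 days old, grown on plates with 16 h of light and 8 h of darkness. The groups were wild-type Col-0, pp4r3a-1 and pp4r3a-2, each with 3 biological replicates. Both mutants are in the Col-0 background and affect PP4R3A (AT3G06670), which encodes a subunit of protein phosphatase 4 that regulates the catalytic subunit. The labels give no other allele or agent for any group. The sources used here do not give the hour of harvest. Since these genes change through the day, an effect of that hour and an effect of genotype cannot be told apart.

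Exon counts summed to between 20733294 and 27022497 per library. Levels are given as counts per 1e6 effective counts after TMM scaling (CPM), and 3 counts corresponded to 0.111 to 0.149 CPM. PP4R3A itself had 80.6 ± 1.37 CPM in Col-0 (mean ± SD, n = 3), against 62.3 ± 2.74 for pp4r3a-1 and 18.4 ± 0.262 for pp4r3a-2. Leaf markers (4 of 4) and root markers (5 of 5) had more than 3 counts in every library. Their sums ran from 28833 to 34746 CPM and from 1812 to 2116 CPM. Of 4 floral organ markers 2 passed 3 counts in every library, with sums of 1.97 to 4.66 CPM and none at 0 in any group. The 3 seed markers summed to 8.43 to 11.7 CPM in Col-0, against 54.9 to 60.6 for pp4r3a-1 and 86.8 to 90.9 for pp4r3a-2, and their part in the values below was not tested. In pp4r3a-2 replicate 3 chloroplast genes took 0.962% of the exon counts, against 0.427% to 0.558% in the other libraries. Without that library the numbers of the 10 genes called against Col-0 were as given below. In whole seedlings, fewer cells that express a gene and less of its RNA per cell cannot be told apart.

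The sequences upstream of these genes hold known clock motifs, shown here because the factors that bind them belong to the same loop. In the 500 bases before the annotated start (TAIR10.1, RefSeq), the evening element AAATATCT was found on either strand in 5 of the 10 genes: PRR5, TOC1, ELF4, LUX and BOA. It occurred in 8.86% of the 27443 windows of protein-coding genes. The related CCA1-binding site AAAAATCT was found in PRR9 and PRR5, and in 12.5% of all windows. No evening element overlapped a CCA1-binding site. The evening element lay 43 bases before the start of BOA, 52, 70 and 408 before LUX, 151 before TOC1, 187 and 292 before PRR5, and 240 and 250 before ELF4. Distances are to the base of the match furthest from the start, whichever strand holds the motif. In these segments, printed 5′ to 3′ on the strand of the gene, capitals mark these motifs, and AGATATTT and AGATTTTT are the same motifs on the opposite strand.
TOC1 (chr5:24674796-24674835, plus strand): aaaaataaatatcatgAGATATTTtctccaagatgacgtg
LUX (chr3:17182956-17183013, plus strand): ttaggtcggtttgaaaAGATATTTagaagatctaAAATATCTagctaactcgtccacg
ELF4 (chr2:16735170-16735219, minus strand): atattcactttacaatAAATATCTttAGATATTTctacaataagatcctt
BOA (chr5:24003829-24003868, plus strand): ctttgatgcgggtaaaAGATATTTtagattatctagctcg
PRR5 (chr5:8358710-8358760, minus strand): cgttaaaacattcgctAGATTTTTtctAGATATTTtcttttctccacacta
PRR9 (chr2:19232275-19232314, plus strand): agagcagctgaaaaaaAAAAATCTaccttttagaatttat

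The genes with an evening element included 1 with a higher level in both mutants, PRR5, and 4 that were lower in at least 1 mutant. The G-box CACGTG was found in PRR9, PRR7, LUX and BOA and in 9.35% of all windows. The LUX-binding sequences GATACG and GATTCG were found in 2 and 3 of the 10 genes, and in 8.76% and 15.4% of all windows. GI and PRR3 held none of these 5 sequences within 500 bases, and matches are letters in a window, not evidence of binding.

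Against Col-0, the 10 genes fell on either side of zero. PRR9, PRR7, PRR5 and GI were higher in both mutants, PRR3, TOC1, ELF3, LUX and BOA were lower in both, and ELF4 was lower in pp4r3a-2 alone. In edgeR's quasi-likelihood fit, with a Benjamini-Hochberg adjusted p under 0.05 over all genes, 4 of the 10 were called higher and 5 lower in pp4r3a-1. The shares of all genes tested there were 36.3% and 36.1%. In pp4r3a-2, 4 were called higher and 6 lower, with 35.6% and 35.8% of all genes. In either direction that is 9 and 10 of the 10 genes, beside 72.4% and 71.4% of all genes. A difference of at least 2-fold was called for 8 of the 10 in each mutant, against 16% of all genes in pp4r3a-1 and 14.7% in pp4r3a-2. Nothing is read from these counts, because the genes were chosen with the contrasts known. The median log2 change of the 10 genes was -0.35 for pp4r3a-1 and -0.86 for pp4r3a-2, and that of all genes -0.0026 and -0.0014. Both mutants were compared with the same 3 Col-0 libraries.

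**Figure D1:**
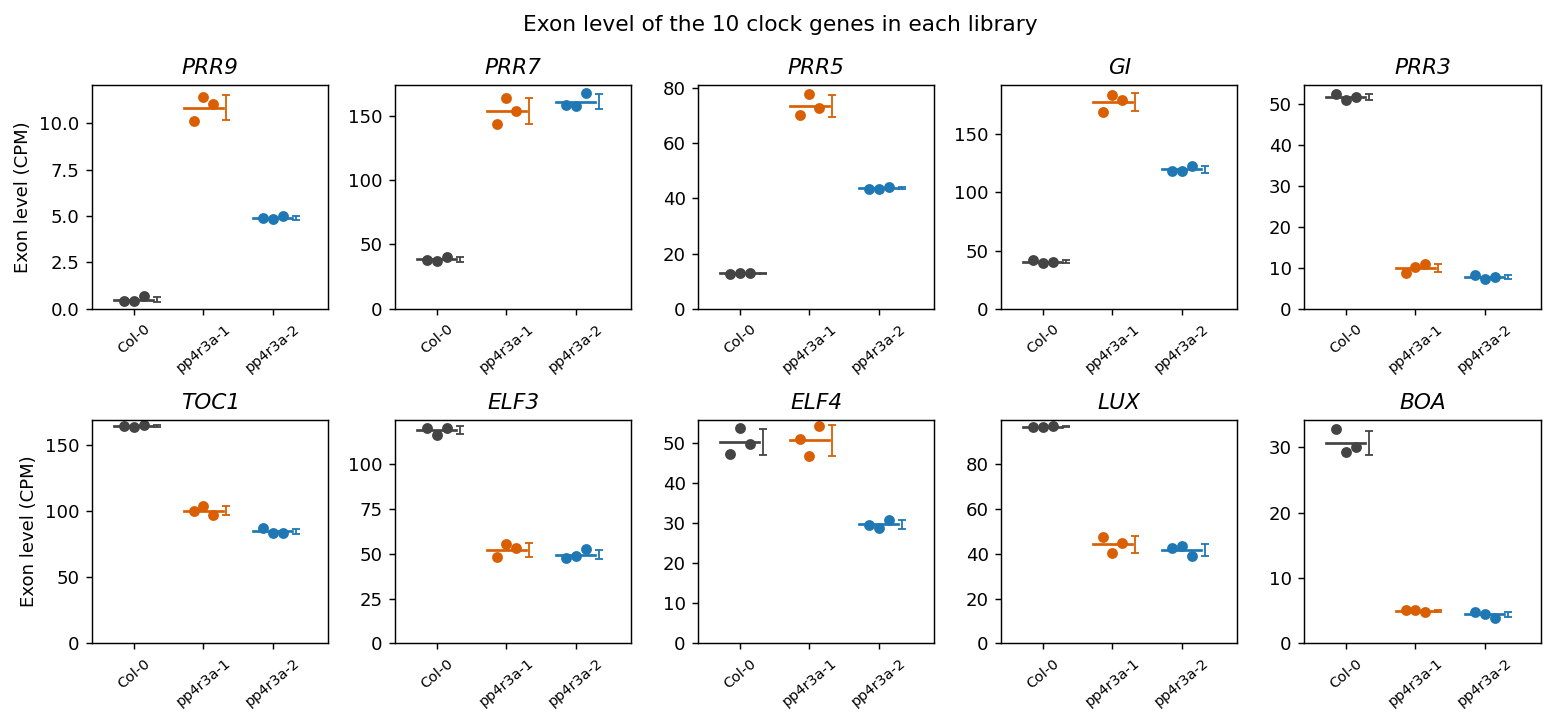
Exon level in CPM on the vertical axis (linear, from 0) for each of the 10 genes in each library, by genotype. Points are libraries, horizontal lines are means and the bars beside them are ± 1 SD (n = 3); PRR9, PRR7, PRR5 and GI lie higher in both mutants, and PRR3, TOC1, ELF3, LUX and BOA lie lower in both.

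PRR9 (AT2G46790, chr2:19232607-19235179) encodes the pseudo-response regulator that acts first after dawn. Its exon level was 0.392, 0.425 and 0.672 CPM in the Col-0 libraries, 10.1, 11.4 and 11.0 CPM in those of pp4r3a-1, and 4.88, 4.82 and 5.01 CPM in those of pp4r3a-2. All mutant libraries were above all Col-0 libraries, and all of pp4r3a-1 were above all of pp4r3a-2. The log2 change was 4.44 (SE 0.16) for pp4r3a-1 and 3.30 (SE 0.19) for pp4r3a-2. The Col-0 levels rest on 10, 11 and 16 counts, so the size of these changes is less certain than for the other genes.

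PRR7 (AT5G02810, chr5:637681-642030) encodes the repressor that acts with PRR9 in the morning and day. Its level was 37.5, 37.1 and 40.5 CPM in the Col-0 libraries, 144, 163 and 154 CPM in those of pp4r3a-1, and 159, 157 and 167 CPM in those of pp4r3a-2. The mutants overlapped each other and lay far above Col-0, with log2 changes of 2.003 (SE 0.046) and 2.07 (SE 0.047).

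PRR5 (AT5G24470, chr5:8356204-8358546) encodes the regulator that follows PRR7 in the afternoon. It stood at 12.5, 12.9 and 12.9 CPM in the Col-0 libraries, 70.1, 77.8 and 72.7 CPM in those of pp4r3a-1, and 43.5, 43.4 and 44.1 CPM in those of pp4r3a-2. The 3 genotypes did not overlap, and pp4r3a-2 lay between the others. The log2 changes were 2.53 (SE 0.052) and 1.77 (SE 0.056).

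GI (AT1G22770, chr1:8061751-8067790), which peaks late in the day, had the same order. Its level was 41.8, 39.6 and 40.4 CPM in the Col-0 libraries, 169, 184 and 179 CPM in those of pp4r3a-1, and 118, 118 and 123 CPM in those of pp4r3a-2. The genotypes did not overlap, and the log2 changes were 2.13 (SE 0.042) and 1.56 (SE 0.042).

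PRR3 (AT5G60100, chr5:24197971-24201415), whose product protects TOC1 from degradation through ZTL, was on the other side. It had 52.3, 51.0 and 51.5 CPM in the Col-0 libraries, 8.79, 10.1 and 10.9 CPM in those of pp4r3a-1, and 8.15, 7.23 and 7.79 CPM in those of pp4r3a-2. The mutants did not overlap Col-0 or each other. The log2 change was -2.38 (SE 0.061) for pp4r3a-1 and -2.74 (SE 0.065) for pp4r3a-2.

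TOC1 (AT5G61380, chr5:24674963-24678550), the evening repressor of CCA1 and LHY, differed less. It stood at 164, 163 and 164 CPM in the Col-0 libraries, 99.9, 104 and 96.8 CPM in those of pp4r3a-1, and 86.9, 83.4 and 83.4 CPM in those of pp4r3a-2. Again no libraries of different genotypes overlapped, and the log2 changes were -0.71 (SE 0.037) and -0.96 (SE 0.038). PRR3 and TOC1 were thus lower together, but PRR3 by 5.22-fold and 6.69-fold and TOC1 by 1.64-fold and 1.94-fold in pp4r3a-1 and pp4r3a-2.

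Of the evening complex, ELF3 (AT2G25930, chr2:11058944-11063324) encodes the scaffold that joins the other subunits. Its level was 120, 116 and 120 CPM in the Col-0 libraries, 48.0, 55.3 and 53.5 CPM in those of pp4r3a-1, and 47.6, 48.8 and 52.5 CPM in those of pp4r3a-2. The mutants overlapped each other and were below all Col-0 libraries, with log2 changes of -1.19 (SE 0.045) and -1.26 (SE 0.046).

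LUX (AT3G46640, chr3:17183042-17186959) encodes the subunit that binds DNA. It stood at 96.6, 96.6 and 96.9 CPM in the Col-0 libraries, 47.7, 40.2 and 45.0 CPM in those of pp4r3a-1, and 42.8, 43.5 and 38.8 CPM in those of pp4r3a-2. The mutants overlapped each other here too. The log2 changes were -1.13 (SE 0.048) and -1.21 (SE 0.049).

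ELF4 (AT2G40080, chr2:16734294-16734953) encodes a small protein subunit of the complex, and it was the member that stood apart from Col-0 in pp4r3a-2 but not in pp4r3a-1. Its level was 47.4, 53.7 and 49.8 CPM in the Col-0 libraries, 51.0, 46.7 and 54.4 CPM in those of pp4r3a-1, and 29.5, 28.8 and 30.9 CPM in those of pp4r3a-2. Col-0 and pp4r3a-1 overlapped, with a log2 change of 0.01 (SE 0.051), whose sign turned with the scaling. All pp4r3a-2 libraries were below both, with a log2 change of -0.76 (SE 0.055) against Col-0.

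BOA (AT5G59570, chr5:24003888-24007844), the relative of LUX, had 32.7, 29.2 and 29.99 CPM in the Col-0 libraries, 5.16, 5.06 and 4.82 CPM in those of pp4r3a-1, and 4.79, 4.58 and 3.97 CPM in those of pp4r3a-2. All mutant libraries were below all Col-0 libraries. The log2 changes were -2.61 (SE 0.076) and -2.77 (SE 0.080), so BOA and PRR3 had the most negative values of the 10 in both mutants. BOA was 6.10-fold and 6.84-fold lower, and LUX 2.18-fold and 2.31-fold.

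LUX and BOA share ground with genes on the opposite strand. AT3G46650 overlaps LUX by 1507 bases and UGT76E1 (AT5G59580) overlaps BOA by 1896 bases in TAIR10.1. The sources used here do not give the strand setting of the counting. AT3G46650 had 1.25 ± 0.168 CPM in Col-0, against 0.719 ± 0.200 for pp4r3a-1 and 0.703 ± 0.0935 for pp4r3a-2 (n = 3). It was thus lower in both mutants, as LUX was, and its intron counts were 167, 65 and 66. UGT76E1 had 0.621 ± 0.138 CPM in Col-0, against 0.799 ± 0.245 and 0.406 ± 0.232 in the mutants. Whether counts are shared over these overlaps was not tested. ELF3 overlaps ALPHA-VPE (AT2G25940) by 24 bases and the antisense locus AT2G08135, which had 4 counts or fewer in each genotype. The other 7 genes overlap no annotated gene.

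**Figure D2:**
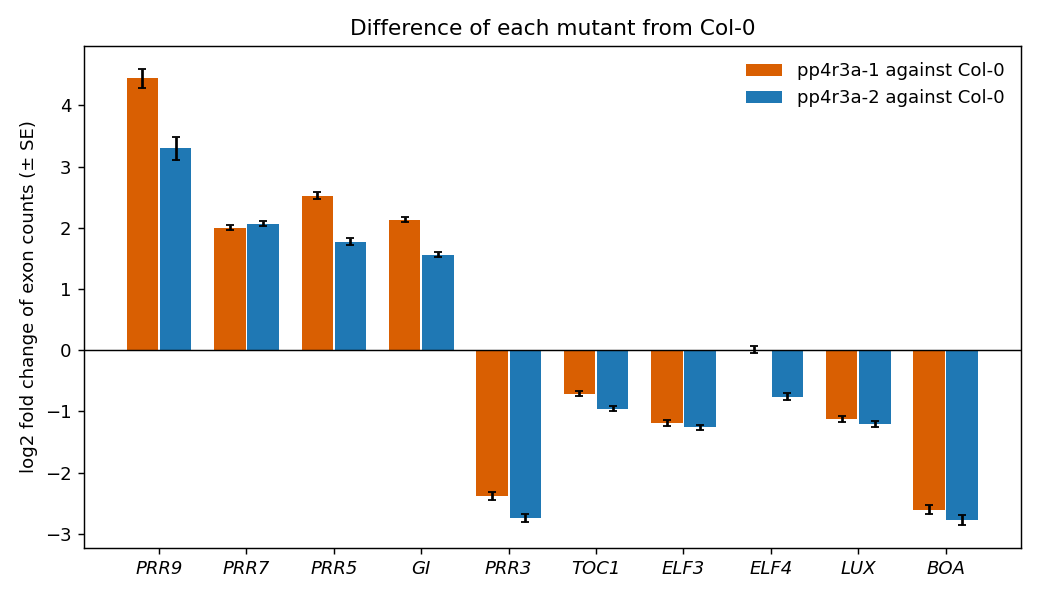
Log2 fold change of exon counts against Col-0 on the vertical axis for the 10 genes, with pp4r3a-1 in orange and pp4r3a-2 in blue; error bars are ± 1 SE from the edgeR fit over 9 libraries. PRR9 has the highest values, 4.44 and 3.30, and BOA and PRR3 the lowest, while the ELF4 bar of pp4r3a-1 stands at 0.01.

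Set directly against pp4r3a-1, pp4r3a-2 had 0 of the 10 genes called higher and 6 lower by edgeR, against 24.2% and 23.7% of all genes tested, or 6 in either direction against 47.9%. The count of higher genes was also 0 at an unadjusted p under 0.05, with DESeq2 and with limma voom. The log2 difference was -1.14 (SE 0.097) for PRR9, -0.77 (SE 0.055) for ELF4, -0.75 (SE 0.044) for PRR5 and -0.57 (SE 0.038) for GI. It was -0.36 (SE 0.086) for PRR3 and -0.24 (SE 0.038) for TOC1. PRR7 had 0.07 (SE 0.042), ELF3 -0.08 (SE 0.049), LUX -0.08 (SE 0.053) and BOA -0.17 (SE 0.11). The libraries of the mutants overlapped in PRR7, ELF3 and LUX. In BOA they did not overlap, but the difference was not called. Counting by libraries alone, 7 of the 10 genes lay wholly lower in pp4r3a-2 and 0 wholly higher, against 26.8% and 26.7% of all genes. A difference of at least 2-fold was called for 1 of the 10, PRR9, against 4.98% of all genes. Among the genes above Col-0, pp4r3a-2 was thus closer to Col-0 in PRR9, PRR5 and GI, and among those below, it was further away in PRR3, TOC1 and ELF4.

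To compare levels between genes, CPM was divided by the length of annotated exons in kilobases (CPM per kb). In Col-0 the order from the highest was ELF4 with 81.2 ± 5.13, TOC1 with 58.4 ± 0.247, ELF3 with 43.3 ± 0.807, LUX with 24.7 ± 0.0451 and PRR3 with 18.4 ± 0.241 CPM per kb (mean ± SD, n = 3). PRR7 with 11.9 ± 0.567, GI with 9.43 ± 0.257, BOA with 8.38 ± 0.511, PRR5 with 7.61 ± 0.121 and PRR9 with 0.232 ± 0.0715 CPM per kb followed. No neighbours in this order overlapped. In pp4r3a-1 PRR7, PRR5 and GI came directly after ELF4, with 47.5 ± 3.05, 43.8 ± 2.34 and 41.3 ± 1.77 CPM per kb, and these 3 overlapped their neighbours among themselves. In pp4r3a-2 PRR7 and ELF4 led with 49.8 ± 1.71 and 48.0 ± 1.77 CPM per kb and overlapped. BOA came last in both mutants, with 1.37 ± 0.0468 and 1.22 ± 0.117 CPM per kb. The places of LUX and BOA in Col-0 rest on the annotated length. Over the shortest annotated transcript, a length chosen after the data were seen, LUX had 69.9 CPM per kb in Col-0, above TOC1, and BOA had 14.98 CPM per kb, above PRR7 and GI. BOA stayed last in both mutants by that length.

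Within the pseudo-response regulator family, the summed level was 96.5 ± 0.905 CPM per kb in Col-0, 136 ± 6.64 in pp4r3a-1 and 111 ± 1.94 in pp4r3a-2. TOC1 held 60.5% ± 0.349 of this sum in Col-0, and 26.3% ± 0.984 and 27.1% ± 0.781 in the mutants (mean ± SD, n = 3). PRR7 went from 12.3% ± 0.476 to 35.03% ± 0.659 and 44.9% ± 0.889, and PRR5 from 7.89% ± 0.149 to 32.3% ± 0.150 and 23.5% ± 0.231. PRR3 held 19.1% ± 0.251 in Col-0, and 2.61% ± 0.244 and 2.48% ± 0.126 in the mutants. PRR9 stayed the smallest share in Col-0 and pp4r3a-2, with 0.240% ± 0.0718 and 2.06% ± 0.0113, and held 3.73% ± 0.0949 in pp4r3a-1. LUX stood 2.95 ± 0.176 times as high as BOA per kb in Col-0, 8.25 ± 0.732 times in pp4r3a-1 and 8.77 ± 0.406 times in pp4r3a-2. Over the shortest transcripts these ratios were 4.68 ± 0.278, 13.1 ± 1.16 and 13.9 ± 0.644. The ratio of GI to TOC1 per kb was 0.162 ± 0.00401 in Col-0, 1.16 ± 0.0521 in pp4r3a-1 and 0.925 ± 0.0376 in pp4r3a-2. The summed level of ELF3, ELF4 and LUX was 149 ± 4.39 CPM per kb in Col-0, 112 ± 6.51 in pp4r3a-1 and 76.7 ± 1.94 in pp4r3a-2. None of these sums, shares or ratios overlapped between Col-0 and either mutant.

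**Figure D3:**
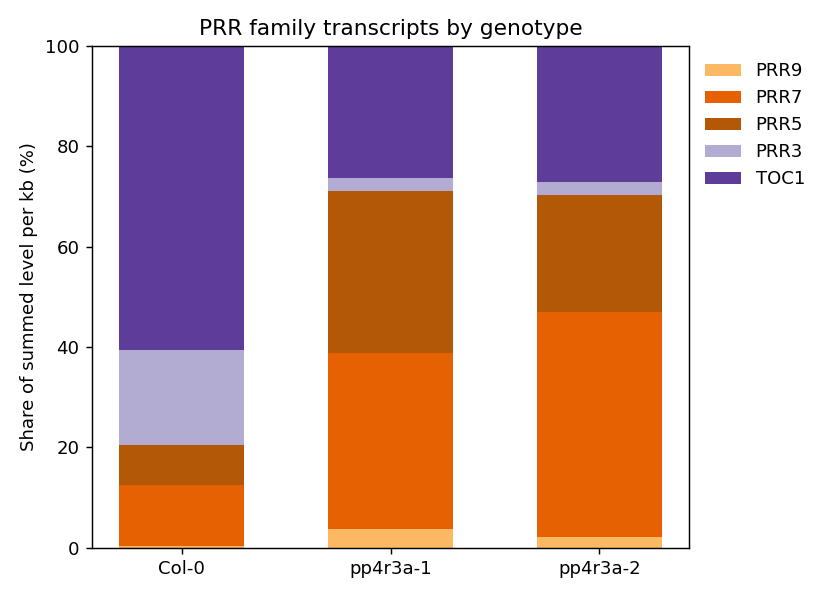
Share of each gene in the summed exon level per kb of PRR9, PRR7, PRR5, PRR3 and TOC1, in percent, as the mean of 3 libraries per genotype (SDs are in the text). TOC1 takes 60.5% in Col-0, while PRR7 and PRR5 take most of the bar in both mutants.

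Counts assigned to introns may come from unspliced or retained sequence, and their source was not tested. The intron share is expressed here as a percent of exon plus intron counts. Of the 10 genes, 6 had at least 90 intron counts over the 9 libraries: PRR7, PRR5, PRR3, TOC1, GI and ELF3. PRR5 had 13, 285 and 122 of these counts in Col-0, pp4r3a-1 and pp4r3a-2, and GI had 15, 191 and 85. Both passed the minimum through the mutants, where their counts are high, so their higher shares there are a description only. Of these 6, PRR7, PRR5, TOC1 and GI had an intron share above Col-0 in every library of pp4r3a-1, and the same 4 in every library of pp4r3a-2. None of the 6 had a share below Col-0 in all libraries. Among the 11240 genes with as many intron counts, 76.2% lay wholly above Col-0 and 1.3% wholly below in pp4r3a-1, and for pp4r3a-2 these shares were 69.3% and 1.63%. The median intron share of those genes was 2.12% in Col-0, 4.33% in pp4r3a-1 and 4.02% in pp4r3a-2, so the 4 genes moved the way most genes did.

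PRR5 had an intron share of 0.929%, 1.18% and 1.92% for the Col-0 libraries, 4.30%, 5.30% and 5.15% in those of pp4r3a-1, and 3.94%, 3.77% and 4.00% in those of pp4r3a-2. The mutants lay above Col-0, and pp4r3a-1 above pp4r3a-2. GI had 0.466%, 0.485% and 0.518% for the Col-0 libraries, 1.43%, 1.38% and 1.45% in those of pp4r3a-1, and 0.960%, 0.762% and 1.39% in those of pp4r3a-2. Its share stayed below the median gene in all 3 genotypes. TOC1 had means of 1.53% ± 0.132, 2.40% ± 0.273 and 2.73% ± 0.154, and PRR7 of 2.702% ± 0.304, 3.52% ± 0.325 and 3.43% ± 0.306, in Col-0, pp4r3a-1 and pp4r3a-2 (n = 3). The TOC1 intron counts did not rise, with 192, 185 and 164 in these groups. Its exon counts were lower in the mutants, with 12329, 7523 and 5839. PRR3 overlapped between all genotypes, with 2.79% ± 0.939, 4.36% ± 1.04 and 4.01% ± 2.42, on 112, 34 and 23 intron counts.

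ELF3 had the highest intron share of the 6 in each genotype, and its groups overlapped. The share was 15.6%, 17.6% and 16.3% for the Col-0 libraries, 16.4%, 16.0% and 15.4% in those of pp4r3a-1, and 15.2%, 14.5% and 16.8% in those of pp4r3a-2. Per base, ELF3 introns had 33.3% ± 2.52 of the exon count density in Col-0, where PRR7 had 8.04% ± 0.931 and GI 1.22% ± 0.0647. ELF3 had 1770 intron counts in Col-0, 743 in pp4r3a-1 and 626 in pp4r3a-2.

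The other 4 genes had too few intron counts to compare. BOA had 33, 21 and 20 in Col-0, pp4r3a-1 and pp4r3a-2, a share of 1.37% ± 0.651, 5.24% ± 0.804 and 6.34% ± 2.49. PRR9 had 2, 37 and 3, although its exon counts were 811 in pp4r3a-1 and 338 in pp4r3a-2. Its intron share was 4.36% ± 1.04 for pp4r3a-1 and 0.885% ± 0.0860 for pp4r3a-2, on 1 count in each pp4r3a-2 library. ELF4, annotated with 1 exon, and LUX, annotated with 2 intronic bases outside every exon, had 20 and 26 intron counts over all libraries. Between the mutants, 1 of the 6 genes, PRR5, had a share wholly lower in pp4r3a-2 and 0 wholly higher, against 18% and 5.86% of the 11240 genes.

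**Figure D4:**
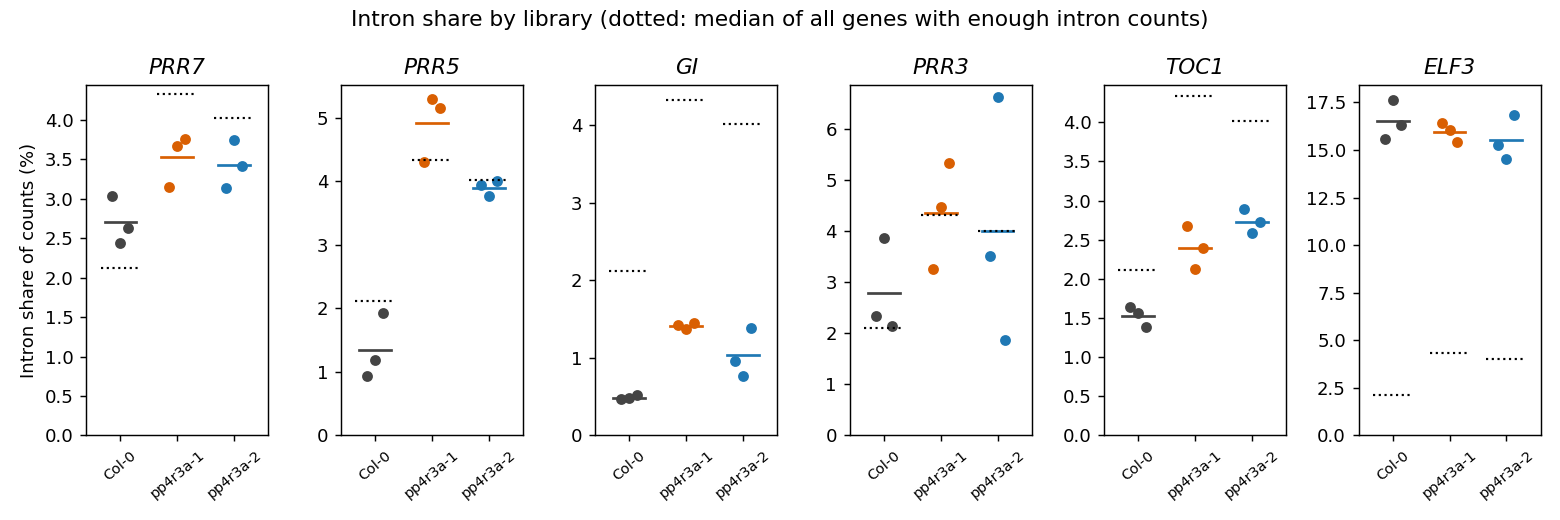
Intron share in percent of exon plus intron counts for the 6 genes with at least 90 intron counts, by library and genotype; points are libraries, solid lines group means and dotted lines the median of 11240 genes. Each panel has its own axis from 0; PRR7, PRR5, GI and TOC1 lie higher in both mutants and ELF3 stays between 14.5% and 17.6% in all 3 genotypes.

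Genes whose exon levels followed those of the 10 most closely were found by the distance of log2 CPM from the Col-0 mean over the 9 libraries, among genes with at least 10 CPM on average. The nearest to GI was AT2G42750, at a distance of 0.0801, with log2 changes of 2.10 and 1.58 in pp4r3a-1 and pp4r3a-2. The nearest to PRR5 was TSO2 (AT3G27060), a ribonucleotide reductase gene, at 0.181, with 2.52 and 1.82. TGG2 (AT5G25980), a myrosinase gene with close relatives, was nearest to both PRR3 and BOA, at 0.310 and 0.650. PRR9 was nearest to ELIP1 (AT3G22840), a light-stress gene, at 0.679. The distances of PRR7, TOC1, ELF3, ELF4 and LUX to their nearest genes ran from 0.134 to 0.256. Of the 10 nearest genes, 6 were others when at least 50 CPM was asked for.

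The other genes of the clock were counted in lists, by edgeR's adjusted p over all genes. These lists were chosen with earlier results of these data known, and most genes named from them were picked by their small adjusted p. The adjusted p given for a named gene is therefore a description. Of 14 morning clock genes, 12 rose and 1 fell in each mutant. Of all genes, 36.3% and 35.6% were called higher in pp4r3a-1 and pp4r3a-2, and 36.1% and 35.8% lower. Between the mutants, 8 of the 14 were higher and 4 lower in pp4r3a-2, against 24.2% and 23.7% of all genes. The median log2 change of the 14 genes against Col-0 was 3.06 for pp4r3a-1 and 3.48 for pp4r3a-2. CCA1 (AT2G46830), which binds the evening element, had 0.678 ± 0.0541 CPM in Col-0, and 28.5 ± 1.68 and 26.2 ± 1.93 CPM in the mutants. The coactivator genes LNK1, LNK2 and LNK4 rose by 4.06, 3.04 and 3.63 in pp4r3a-1 and by 3.62, 3.605 and 3.99 in pp4r3a-2. RVE2 (AT5G37260), a MYB-like gene of the same family as CCA1, fell by 2.25 (SE 0.062) and 1.90 (SE 0.060). LHY, named after its values were seen, had 0.956, 8.49 and 14.9 CPM in the 3 genotypes. The Col-0 levels rest on 16, 19 and 16 counts for CCA1 and 24, 26 and 22 for LHY. The size of their changes is therefore less certain. The edgeR adjusted p of the genes named here was at most 6.04e-26 in pp4r3a-1, except LHY with 1.27e-21, and at most 8.94e-26 in pp4r3a-2. LNK1, LNK2 and LNK4 each overlap another annotated gene, so their counts may be shared.

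Of 16 regulators and partners of the day and evening proteins, 7 rose and 4 fell in pp4r3a-1, and 5 rose and 6 fell in pp4r3a-2. The 11 called in each mutant are a share close to the 72.4% and 71.4% of all genes called. Between the mutants, 1 of the 16 was higher and 8 were lower in pp4r3a-2, against 24.2% and 23.7% of all genes. The medians of the 16 genes against Col-0 were 0.08 and -0.01. JMJD5 (AT3G20810), a jumonji-domain gene expressed in the evening, had 149 ± 1.95 CPM in Col-0, and 13.3 ± 0.822 and 8.92 ± 0.223 CPM in the mutants. BBX19 (AT4G38960), whose B-box protein works with the PRR proteins, rose by 2.07 (SE 0.13) and 1.73 (SE 0.14). LWD1 (AT1G12910), a WD-repeat gene that promotes clock gene expression, fell by 0.72 (SE 0.060) and 0.69 (SE 0.060). TIC (AT3G22380), a nuclear clock regulator, rose by 0.55 (SE 0.041) and 0.27 (SE 0.041). The edgeR adjusted p was at most 3.73e-07 for these 4 genes in either mutant. FKF1 (AT1G68050), the blue-light F-box partner of GI, rose by 0.96 (SE 0.057) in pp4r3a-1 and fell by 0.75 (SE 0.069) in pp4r3a-2, with edgeR adjusted p of 5.34e-17 and 7.52e-12. ZTL (AT5G57360), the F-box gene for TOC1 and PRR5 turnover, named after its values were seen, had log2 changes of 0.39 (SE 0.046) and 0.19 (SE 0.047).

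Of 8 relatives of the evening complex and PRR genes, 7 were tested. None rose by edgeR, at an unadjusted p under 0.05, by DESeq2 or by limma voom, and 5 fell in pp4r3a-1 and 4 in pp4r3a-2, with medians of -0.47 and -0.18. DESeq2 called 3 lower in pp4r3a-2. Of all genes, 36.1% and 35.8% were called lower in pp4r3a-1 and pp4r3a-2, and 36.3% and 35.6% higher. In either direction 72.4% and 71.4% were called, beside which the number of relatives called is not high. The ELF4 paralogs EFL4 (AT1G17455) and EFL3 (AT2G06255) fell by 1.13 (SE 0.092) and 2.27 (SE 0.25) in pp4r3a-1 and by 1.18 (SE 0.094) and 2.15 (SE 0.25) in pp4r3a-2, with edgeR adjusted p of at most 1.78e-09. EFL2 (AT1G72630) fell by 0.49 and 0.26, with edgeR adjusted p of 2.88e-07 and 0.00236. PRR8 (AT4G00760), much of which overlaps other genes, fell by 0.47 and 0.18, with edgeR adjusted p of 2.06e-07 and 0.0197. MYBC1 (AT2G40970), a GARP relative of LUX, fell by 0.29 in pp4r3a-1, where the edgeR adjusted p was 0.00171, but had -0.10 in pp4r3a-2, where it was 0.260. PRR4 (AT5G49240) had no count in any library, where 3 counts would be at most 0.149 CPM.

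Of 11 clock outputs, 7 rose and 3 fell in each mutant, with medians of 1.08 and 0.95. The genes that fell were not all the same in the mutants. CAT3 (AT1G20620) was called lower in pp4r3a-1 alone, with log2 changes of -0.30 and 0.07. GRP7 (AT2G21660) was called lower in pp4r3a-2 alone, with 0.02 and -0.59, and these genes are named after their values were seen. The 10 of 11 called compare with 72.4% and 71.4% of all genes. CO (AT5G15840), the activator of flowering in long days, and its target FT (AT1G65480) were among those that fell, and are named after their values were seen. CO fell by 1.64 (SE 0.11) and 1.65 (SE 0.12), and FT had 1.56 ± 0.203 CPM in Col-0 and 0.193 ± 0.130 and 0.338 ± 0.124 CPM in the mutants. The FT levels of the mutants lie near the 0.111 to 0.149 CPM of 3 counts, so the size of its change is uncertain. With a stricter filter on low counts, 2 outputs in place of 3 were called lower in pp4r3a-1. The edgeR adjusted p was at most 6.48e-08 for CO and FT, and CO overlaps AT5G15843 by 1967 bases on the opposite strand. The growth-promoting genes PIF4 (AT2G43010) and PIF5 (AT3G59060), which the evening complex represses at night, rose by 1.61 and 1.83 in pp4r3a-1 and by 1.82 and 2.15 in pp4r3a-2, with an SE of at most 0.046. CDF1 (AT5G62430) and CDF3 (AT3G47500), DOF factors that repress CO and are held down by PRR proteins, rose by 2.02 and 2.73 in pp4r3a-1 and by 1.76 and 1.92 in pp4r3a-2. LHCB1.1 (AT1G29920), an antenna protein gene with near-identical copies, rose by 1.08 and 1.55, and its counts are uncertain for that reason. For the 5 genes PIF4, PIF5, CDF1, CDF3 and LHCB1.1 the edgeR adjusted p was at most 2.63e-15.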

How the data were processed

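The deposited files give an exon count and an intron count per locus for each library, per the file headers, as whole read counts made by the authors. Per the submitters' processing notes reads were aligned with STAR. RNA was poly(A)-selected, per the labels' protocols. The sources used here do not give the STAR version, the build, the gene annotation, or the program and strand setting used for counting.

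The exon counts passed filterByExpr, were TMM-scaled, and entered a robust quasi-likelihood fit in edgeR with 1 mean per genotype over 9 libraries. The threshold was a Benjamini-Hochberg adjusted p under 0.05 over all 22631 genes, two-sided. The SE of a log2 change is its size over the root of the F statistic. SEs cover the spread of 3 replicates and counting error only. Intron shares were compared as ranges over libraries. The members and gene lists were chosen with earlier results of these data known.

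Named genes were all members, up to 5 per other list by the smallest mean adjusted p against Col-0, and the nearest gene of each member. Gene models and sequences came from TAIR10.1 (RefSeq), which holds 37573 of the loci and lacks 296 of them, and which may not be the annotation counted. Alternatives were other scalings (RLE, upper quartile), other filters, DESeq2, limma voom, a replicate block, an adjusted p under 0.01, nuclear genes only, the compared groups only, and leaving out each library. In simulated data for pp4r3a-1 against Col-0 with 200 changed genes, 80.6% of the 1.5-fold changes were recovered, 95.5% of the 2-fold and 100% of the 4-fold ones. False calls numbered 19 out of 203, a share above the threshold of 0.05. Only these 200 genes were changed in the simulation, whereas 72.4% of all genes were called in the data. Error rates where most genes differ were therefore not tested. Fits ran in R 4.3.3 with edgeR 4.0.16, limma 3.58.1 and DESeq2 1.42.0. Summaries and plots were made in Python 3.11.15 with numpy 2.4.6, pandas 2.3.3 and, for plots, matplotlib 3.10.9.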

Additional observations from a re-analysis of the deposited data

Results flagged for a closer look

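FKF1 was called in opposite directions in the mutants against Col-0, and the direct comparison of pp4r3a-2 with pp4r3a-1 gave a log2 difference of -1.72 (SE 0.063; edgeR adjusted p 3.19e-22). Its level was 25.6 ± 1.96 CPM in Col-0, against 49.8 ± 3.03 for pp4r3a-1 and 15.2 ± 1.40 for pp4r3a-2 (n = 3), and both mutants were compared with the same Col-0 libraries. FKF1 overlaps AT1G68060 by 21 bases on the opposite strand.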

How the results depend on the processing

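The 30 log2 changes of the members were recomputed under 19 settings. Of the 570 values, 564 kept their direction and their side of the threshold. The ELF4 change in pp4r3a-1 turned negative with upper quartile scaling (-0.0241), without Col-0 replicate 1 (-0.0312) and without pp4r3a-1 replicate 3 (-0.0392), and ranged up to 0.0663 with other libraries left out. Between the mutants, 3 differences became called: PRR7 at 0.1101 and LUX at -0.1541 without pp4r3a-1 replicate 2, and ELF3 at -0.1361 without pp4r3a-1 replicate 1. The numbers of members called against Col-0 were the same under all settings. With each library left out in turn, members called between the mutants ranged from 0 to 1 higher and 6 to 7 lower. The relatives called higher in pp4r3a-2 than in pp4r3a-1 numbered 2 of 7 tested, against 24.2% of all genes. They ranged from 1 to 2 with a library left out, and numbered 1 at an adjusted p under 0.01. The cause of these shifts was not tested.

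Intron shares wholly above Col-0 held for 2 members in each mutant when at least 450 intron counts were asked for, which leaves PRR7, TOC1 and ELF3. By intron CPM, 3 members lay wholly above Col-0 in each mutant, against 72.3% and 66.2% of the 11240 genes by the same measure. By that measure 2 members lay wholly below Col-0 in each mutant, against 5.4% and 5.93% of the genes. Between the mutants 2 members had a lower intron CPM in pp4r3a-2, against 22.5% of the genes. At least 450 intron counts left 0 members lower between the mutants. With a library left out, the members above Col-0 ranged from 4 to 5 in pp4r3a-1 and stayed at 4 in pp4r3a-2, those below Col-0 in pp4r3a-2 ranged from 0 to 1 (1 without pp4r3a-2 replicate 3), and those between the mutants from 0 to 1 higher and 1 to 3 lower (3 without pp4r3a-2 replicate 3). Groups of fewer libraries overlap less easily.

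Replicate numbers are not shown to pair the samples: correlations of same-numbered libraries ran from -0.0413 to 0.0311. With a replicate block 4 members were higher and 5 lower in pp4r3a-1, and 4 higher and 6 lower for pp4r3a-2, the same as without it. The number of all genes called went from 16386 to 16349 in pp4r3a-1 and from 16158 to 16107 in pp4r3a-2. Levels per kb of LUX, BOA and PRR3 moved in all genotypes with the shortest transcript. The nearest gene was another for 9 of 10 members by correlation.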

Other observations

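Some of the members lie close to other clock genes, and their neighbours were read after the data were seen. PRR9 and CCA1 lie on the same strand of chromosome 2 with 10411 bases between them (TAIR10.1), and hold 3 tested genes between them. Of these, ZAT (AT2G46800), a zinc transporter gene, had log2 changes of 0.27 (SE 0.044) and 0.16 (SE 0.045) in pp4r3a-1 and pp4r3a-2, with edgeR adjusted p of 1.11e-06 and 0.00214. AT2G46810 had -0.40 (SE 0.080) and -0.35 (SE 0.081), with edgeR adjusted p of 3.53e-05 and 0.000234. PSI-P (AT2G46820), a photosystem I subunit gene, had -0.03 (SE 0.037) and 0.19 (SE 0.037), with edgeR adjusted p of 0.443 and 1.67e-05. The changes of the 3 genes in between were thus small beside the 4.44 and 3.30 of PRR9 and the 5.38 and 5.26 of CCA1. Those of PRR9 and CCA1 rest on few Col-0 counts, so their size is uncertain.

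PRR7 and RVE4 (AT5G02840), a MYB-like gene of the CCA1 family, lie 6617 bases apart on chromosome 5 on opposite strands. RVE4 had 38.2 ± 1.85 CPM in Col-0, against 38.2 ± 0.665 for pp4r3a-1 and 47.6 ± 2.18 for pp4r3a-2. The difference from Col-0 was not called in pp4r3a-1 (edgeR adjusted p 0.999) and was 0.32 (SE 0.048) in pp4r3a-2 (edgeR adjusted p 2.74e-07). Over the 20 tested genes that flank the 10 members, 9 rose and 5 fell in pp4r3a-1, and 7 rose and 7 fell in pp4r3a-2. The 14 of 20 called in each mutant are close to the 72.4% and 71.4% of all genes. Their log2 changes ran from -2.06 to 0.78 and from -1.25 to 0.70. The lowest was AT5G24490 (chr5:8365601-8367460), the tested gene that follows PRR5 on the chromosome but does not adjoin it. AT5G24490 had 525 ± 6.29 CPM in Col-0 and 126 ± 2.47 and 221 ± 3.43 CPM in the mutants.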
